A study of Saccharomyces cerevisiae with 4 samples.

Results

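The genes described here encode the molecular chaperones of the cytosol and mitochondria of the budding yeast Saccharomyces cerevisiae: 38 genes for Hsp100, Hsp90, Hsp70 and Hsp60 proteins, their cochaperones, the CCT ring and the transcription factor Hsf1. They were taken by gene symbol from the array's annotation. All 38 were on the array, as 76 spots of the 11138 that carried a gene symbol, among 5539 named genes, and all 38 were tested among 5489 genes. Each of 4 2-colour microarrays compared RNA of BY4741 cells that had grown for 2 h with 30 µg/ml Congo red with RNA of untreated BY4741 cells, taken from the other part of the same culture after it was divided, both in rich medium (YEPD) at 24 °C. Congo red is a dye that binds wall polysaccharides and disturbs wall assembly. BY4741, a laboratory strain that is haploid and of mating type a, carries deletions of HIS3, LEU2, MET17 and URA3, so both sides of the comparison carried them. Channel 2 held the Congo red RNA on arrays 1 and 3, and channel 1 held it on arrays 2 and 4. Whether the arrays stand for separate cultures is not stated in the labels. The p-values and intervals therefore cover the spread between these arrays alone, which may be technical.

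Chaperones bind proteins that are not yet folded or have lost their fold. Hsp70 proteins do so in cycles of ATP use that J proteins start and nucleotide exchange factors end, and Hsp90 takes over a narrower set of clients, many of them kinases and receptors, with the help of its cochaperones. Hsp104 pulls proteins out of aggregates, Hsp60 and the CCT ring enclose proteins in a chamber, and Hsf1 drives many of these genes under heat and other proteotoxic stress. The main stress route known for Congo red in yeast is the cell wall integrity pathway, whose kinase Slt2 acts through the factor Rlm1.

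The values given here are log2 ratios after the median of each array was set to 0, and they are read as Congo red over untreated. This direction is likely but not settled, since the labels name neither dyes nor the direction of the ratio. It rests on marker genes known to act under Slt2 and Rlm1, of which all 7 with a test lay above 0 on every array, between 0.46 and 3.35. These markers were listed with earlier results of these data known, so their signs are not independent support for the direction. Across genes, Pearson's r was 0.30 between arrays 1 and 3 and 0.08 between arrays 2 and 4, and averaged -0.04 between arrays of opposite channel assignment. RNA came from whole cultures, so less transcript per cell and fewer cells holding the transcript cannot be told apart. The number of arrays limits the precision. Signal strengths were not used here.

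None of the 38 chaperone genes passed the limma threshold, an adjusted p of 0.05 over all genes, in either direction, and their limma adjusted p ran from 0.63 to 0.99. Over all genes tested, 5 genes or 0.0911% passed, all of them higher. At an unadjusted p under 0.05 stood 1 chaperone gene of 38, SSB1, where the share of all genes was 7.74%, with 5.37% higher and 2.37% lower. The mean log2 ratios of the chaperone genes ran from -0.61 for SSB1 to 0.53 for SSE2, with a median of -0.08 against -0.01 for all genes tested. Means lay below 0 for 24 members and above 0 for 14, so 63.2% of members lay below 0 and 52% of all genes did. In 36 of 38 the mean was within 0.5 of 0.

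The data also bound how large a shift could have gone unseen. For 31 of 38 members the 95% limma interval of the mean lay wholly within 1 log2 unit of 0, which is a change of 2-fold, against 67.8% of all genes tested. The heat-inducible Hsp90 gene HSP82 had an interval from -0.60 to 0.08, the cytosolic Hsp70 gene SSA1 from -0.62 to 0.03, the disaggregase gene HSP104 from -0.58 to 0.20, and the chaperonin gene HSP60 from -0.41 to 0.35. The 7 members with an interval reaching past 1 on either side were HSP78, AHA1, SSA3, SSE2, SSB1, CCT3 and CCT7. The widest was that of SSA3, from -1.68 to 1.79, which leaves a 2-fold change in either direction inside it. The intervals also depended on the centring. With arrays centred in runs of spot numbers, that of HSP82 was from -0.39 to 0.18.

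**Figure D1:**
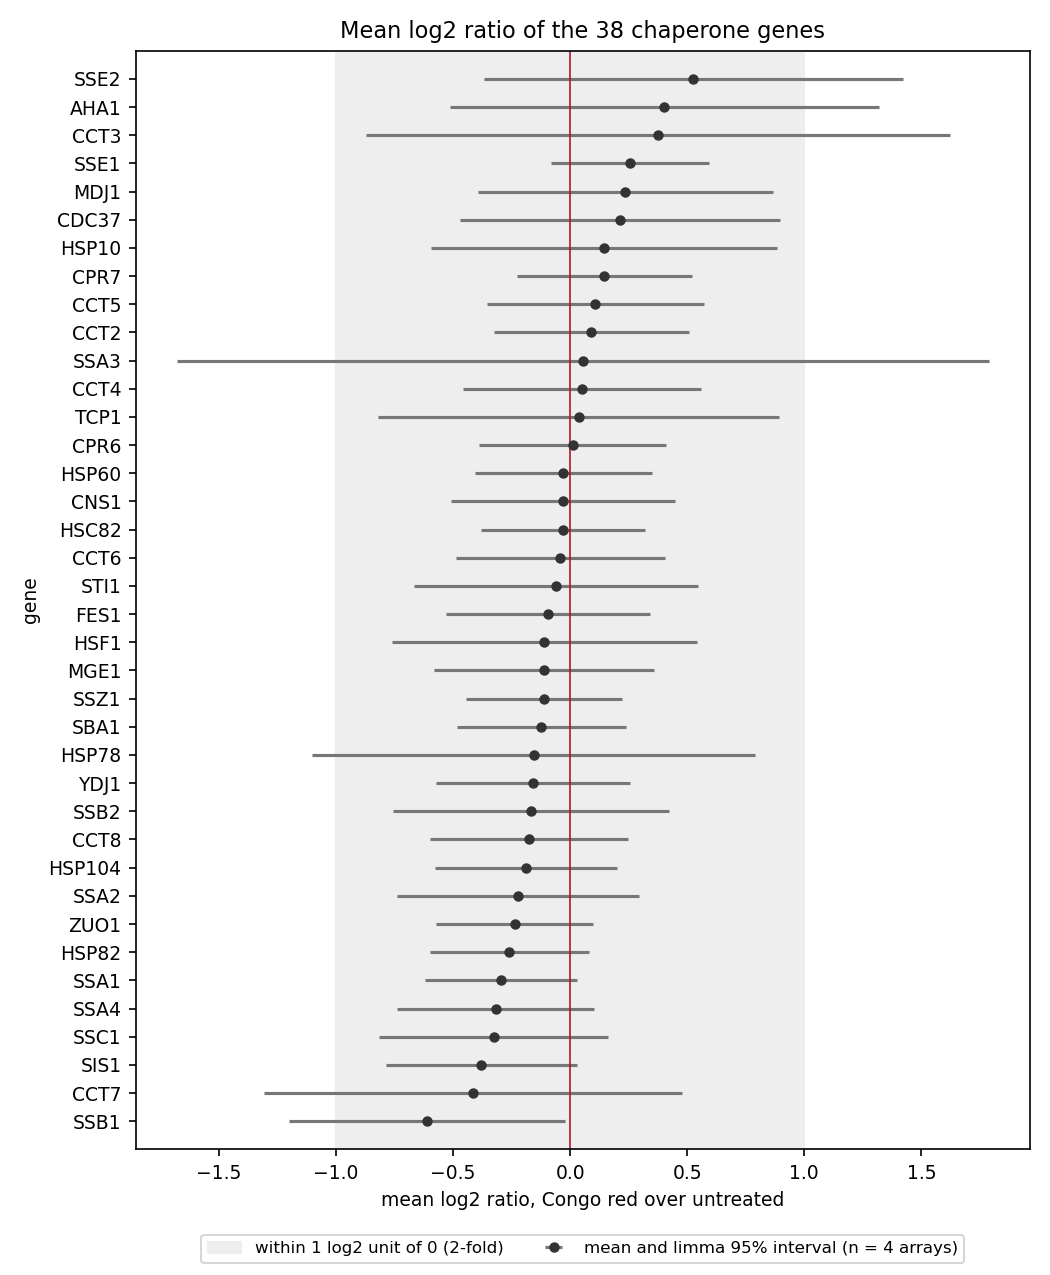
Mean log2 ratio, Congo red over untreated, of each of the 38 chaperone genes (points) with its 95% limma interval (bars, n = 4 arrays), ordered by the mean. The means lie between -0.61 and 0.53, and 31 intervals stay inside the shaded band of 1 log2 unit on each side of 0.

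Hsp90, which in yeast is made from a largely constitutive gene and a heat-inducible one, showed small values with little spread. HSP82 (YPL240C), the heat-inducible gene, was at -0.33, -0.36, -0.14 and -0.20 on arrays 1 to 4. It lay below 0 on each array, with a mean of -0.26 ± 0.13 (SE, n = 4, limma adjusted p = 0.70), or 0.835-fold. HSC82 (YMR186W), the constitutive gene, was at 0.11, -0.21, -0.05 and 0.03, on both sides of 0, with a mean of -0.03 ± 0.14. With arrays centred in runs of 400 spot numbers, the mean of HSP82 was -0.10 ± 0.11 (limma adjusted p = 0.78) and stayed below 0 on each array. The coding sequences of the Hsp90 pair are close relatives, as are those of SSA1 and SSA2 and of SSB1 and SSB2, so the spots of each pair may share signal and their separate values are uncertain.

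The 7 cochaperones of Hsp90 had a median of 0.01, with 4 means above 0 and 3 below, and none passed the limma threshold. STI1, which bridges Hsp70 and Hsp90, was at 0.17, -0.72, 0.48 and -0.17 on arrays 1 to 4. CDC37, which brings kinases to Hsp90, was at 0.75, -0.24, 0.72 and -0.37. Both genes lay above 0 on arrays 1 and 3 and below 0 on arrays 2 and 4, so their means of -0.06 ± 0.24 and 0.21 ± 0.27 (SE, n = 4) average values of opposite sign. AHA1, the activator of the Hsp90 ATPase, was at 0.01, 1.69, -0.06 and -0.03. Its mean of 0.40 ± 0.36 rested on array 2, where only 1 of its 2 spots had a value, and without that array the mean was -0.03. The small values on the other arrays average AHA1 spots on opposite sides of 0. These spots read 0.47 and -0.45 on array 1, 0.11 and -0.24 on array 3, and 0.15 and -0.21 on array 4. The prolyl isomerases CPR6 and CPR7 had means of 0.01 ± 0.15 and 0.14 ± 0.15. SBA1, the yeast p23 that slows the Hsp90 cycle, was at -0.12 ± 0.14, and CNS1, an essential cochaperone, was at -0.03 ± 0.19.

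**Figure D2:**
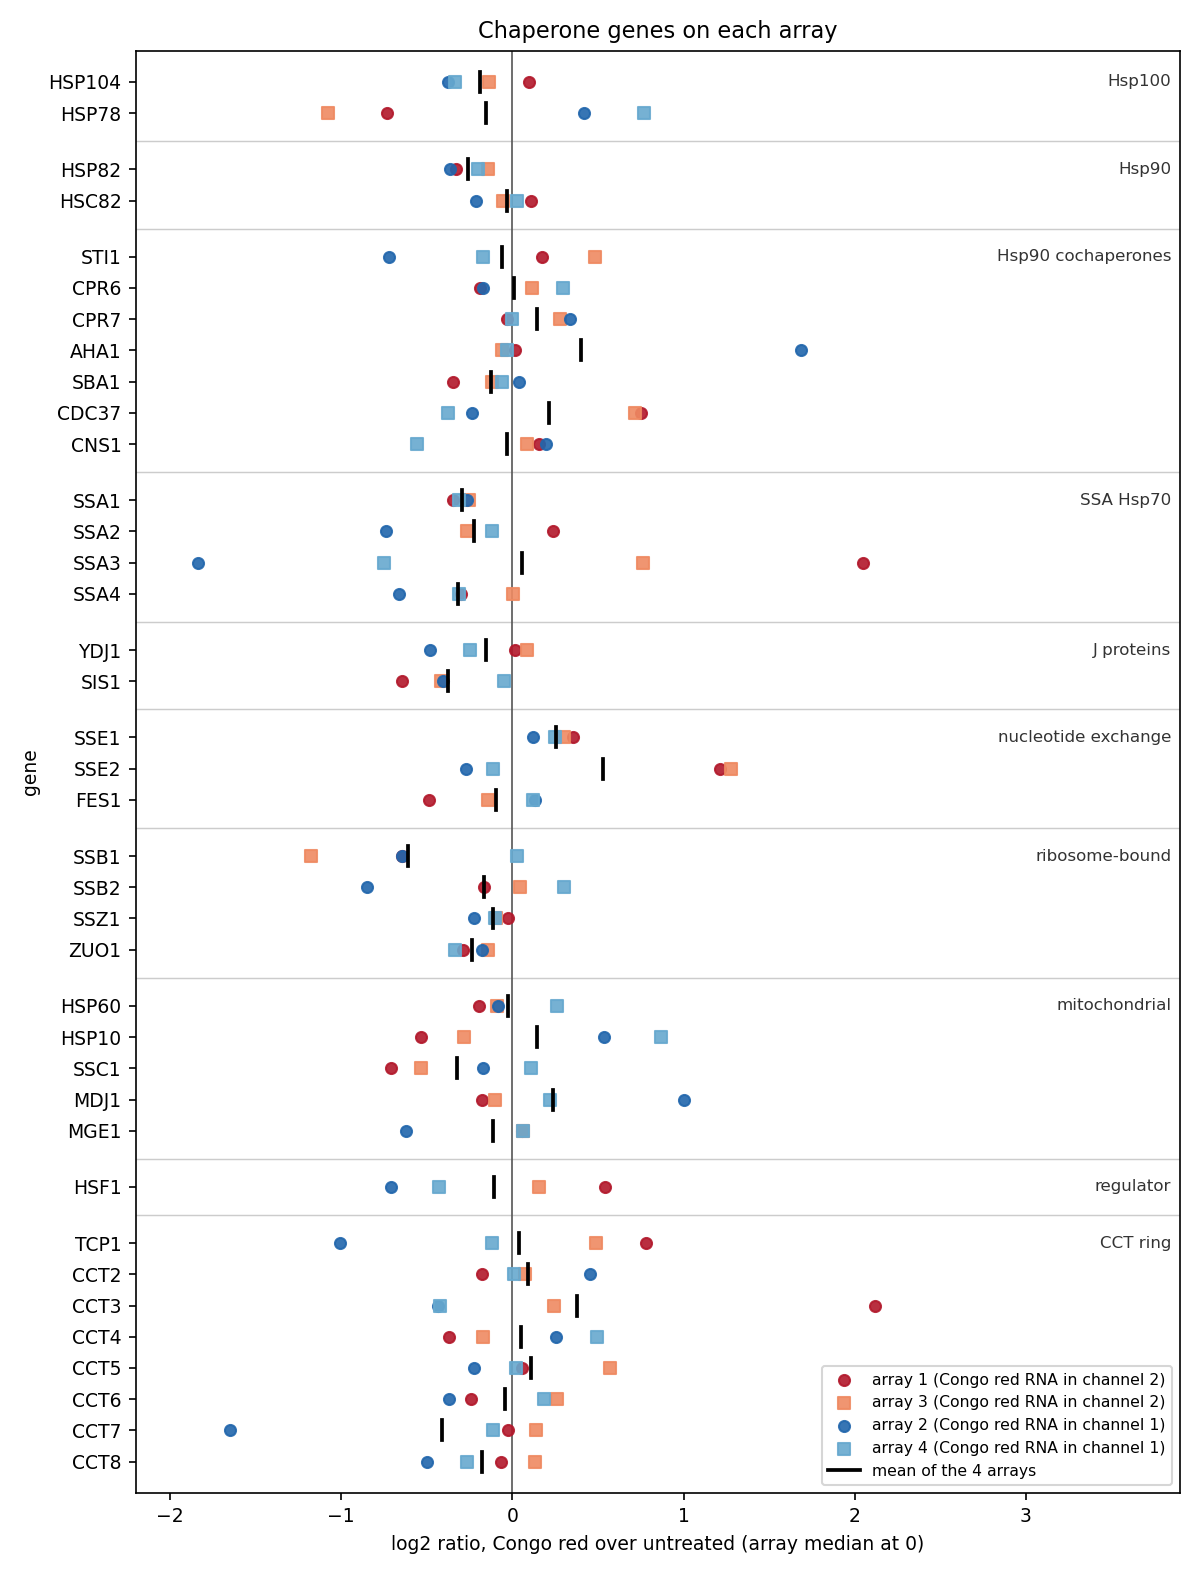
Log2 ratio, Congo red over untreated, of each chaperone gene on each of the 4 arrays (points, coloured by the channel that held Congo red RNA) and the mean of the 4 arrays (black bars), grouped by role. With array medians at 0, SSA1, SSZ1, ZUO1, SSE1 and HSP82 span about 0.09 to 0.23 across the arrays. SSA3, CCT3 and HSP78 span about 1.85 to 3.89.

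Of the 4 cytosolic SSA Hsp70 genes, 3 had means below 0 and 1 above, and none passed the limma threshold. Their median was -0.26, which was -0.13 without array 2 and 0.19 with the sign of arrays 2 and 4 turned. SSA1 (YAL005C), made at all times and more so under heat, was at -0.35, -0.26, -0.26 and -0.31. With each array centred on its median, it spread less across the arrays than any other member, with an SD of 0.04 (n = 4), and lay below 0 on each, at a mean of -0.29 ± 0.13 (SE, limma adjusted p = 0.65), or 0.815-fold. SSA2 (YLL024C), its constitutive relative, was at 0.24, -0.74, -0.27 and -0.12, mostly below 0 but apart from SSA1 on arrays 1 and 2. SSA4 (YER103W), the strictly heat-inducible gene, was at -0.30, -0.66, 0.004 and -0.31, a mean of -0.32 ± 0.16 (limma adjusted p = 0.70). SSA3 (YBL075C), induced by stress and at the end of growth, was at 2.05, -1.84, 0.76 and -0.75, above 0 on arrays 1 and 3 and below 0 on arrays 2 and 4. The array 1 value of SSA3 rested on 1 spot, and its spots on array 2 read 1.06 and -4.74. Where spot pairs that differed by over 1 log2 unit were left out, SSA3 had a mean of 0.69 ± 0.56 on 3 arrays (limma adjusted p = 0.71), against 0.05 ± 0.67 on 4.

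The helpers of Hsp70 pointed to both sides of 0. SIS1 (YNL007C), the essential J protein of the cytosol and nucleus, was at -0.64, -0.40, -0.42 and -0.05 on arrays 1 to 4, below 0 on each, with a mean of -0.38 ± 0.16 (SE, n = 4, limma adjusted p = 0.64). YDJ1, the most abundant J protein of the cytosol, was at 0.02, -0.48, 0.08 and -0.25. SSE1 (YPL106C), an Hsp110 that exchanges nucleotide on Hsp70, was at 0.35, 0.12, 0.30 and 0.25. It was the single member above 0 on each array, with a mean of 0.26 ± 0.13 (limma adjusted p = 0.70), or 1.19-fold. With arrays centred in runs of 400 spot numbers, SSE1 was at -0.05 on array 2 and its mean was 0.21 ± 0.14. SSE2 (YBR169C), its stress-inducible paralog, was at 1.21, -0.27, 1.28 and -0.11, and so was high on arrays 1 and 3 alone. The mean of SSE2 was 0.53 ± 0.35 and did not pass (limma adjusted p = 0.74), and it ran from 0.28 to 0.79 when 1 array was left out. FES1, an exchange factor of another fold, was at -0.49, 0.13, -0.14 and 0.12, low on arrays 1 and 3.

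Chaperones that sit on the ribosome and receive the growing chain had 4 means below 0 of 4, with a median of -0.20. SSB1 (YDL229W), an Hsp70 that binds nascent chains, was at -0.64, -0.65, -1.18 and 0.03, low on 3 arrays and near 0 on array 4. Its mean of -0.61 ± 0.23 (SE, n = 4), or 0.655-fold, had a limma adjusted p = 0.63. The 2 spots of SSB1 differed: on array 3 they read -0.03 and -2.32, and without that array its mean was -0.42. SSB2 (YNL209W), nearly identical in protein, was at -0.17, -0.85, 0.05 and 0.30, on both sides of 0. ZUO1, a J protein, and SSZ1, an Hsp70, form the ribosome-associated complex that activates Ssb. ZUO1 was at -0.29, -0.18, -0.15 and -0.33, and SSZ1 was at -0.03, -0.23, -0.10 and -0.10. Both lay below 0 on each array, by small amounts, with means of -0.24 ± 0.13 and -0.11 ± 0.13. The sign of SSZ1 depended on the centring: in runs of 400 spot numbers its mean was 0.03 ± 0.13, and that of ZUO1 was -0.10 ± 0.11. Neither gene then lay below 0 on every array.

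A total of 5 members lay below 0 on all 4 arrays, namely HSP82, SSA1, SIS1, SSZ1 and ZUO1, and 1 lay above 0 on all 4, SSE1. These are 13.2% and 2.63% of the members, where the shares of all genes with 4 values were 8.65% and 9.54%. With centring in runs of 400 spot numbers the counts were 4 below 0, HSP82, SSA1, SSA2 and SIS1, and 0 above. The shares of all genes were then 8.76% below and 10.6% above. HSP82, SSA1 and SIS1 were thus in both sets, SIS1 narrowly, at -0.0016 on array 4 with centring in runs.

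Both Hsp100 genes had means below 0 and differed in how the arrays ran. HSP104, whose protein frees proteins from aggregates together with Hsp70, was at 0.10, -0.38, -0.14 and -0.33 on arrays 1 to 4, a mean of -0.19 ± 0.15 (SE, n = 4, limma adjusted p = 0.75). HSP78, the Hsp100 of the mitochondrial matrix, was at -0.73, 0.42, -1.08 and 0.77. The values of HSP78 lay below 0 on arrays 1 and 3 and above 0 on arrays 2 and 4, and its 2 spots disagreed on array 1, at 0.60 and -2.07, and on array 4, at 1.36 and 0.18.

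The mitochondrial folding machinery of Hsp60 and matrix Hsp70 had a median of -0.03 over 5 genes, which was 0.03 without centring of the arrays. HSP10 (YOR020C), the lid of the Hsp60 chamber, was at -0.54, 0.53, -0.28 and 0.87. HSP60 (YLR259C) itself was at -0.19, -0.09, -0.09 and 0.26. Lid and chamber thus had means of 0.15 ± 0.29 and -0.03 ± 0.15 (SE, n = 4). SSC1, the matrix Hsp70 that also draws proteins through the import channel, was at -0.71, -0.17, -0.53 and 0.11, a mean of -0.33 ± 0.19 (limma adjusted p = 0.71). MDJ1, its J protein, was at -0.18, 1.01, -0.10 and 0.22. On array 2 the spots of MDJ1 read 0.04 and 1.98, and without such pairs its mean was -0.02 ± 0.17 on 3 arrays, against 0.24 ± 0.24 on 4. MGE1, the exchange factor of SSC1, was at 0.05, -0.62, 0.06 and 0.06. In HSP60, HSP10, SSC1 and MDJ1 arrays 1 and 3 both lay below arrays 2 and 4, which was so for 4 of these 5 genes, and MGE1 did not share it. HSP60 met this order narrowly, at -0.092 on array 3 against -0.086 on array 2. With arrays centred in runs of spot numbers HSP60 lost the order, at 0.006 on array 3 and -0.13 on array 2. HSP10, SSC1 and MDJ1 kept it. Over all genes with 4 values this order held for 29.5%.

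The CCT ring, which folds actin and tubulin, has 8 different subunits in each ring, and no shared direction was seen. The median of the 8 genes was 0.04, with 5 means above 0 and 3 below, and the array medians were -0.05, -0.40, 0.19 and -0.05. TCP1, which encodes the first subunit, was at 0.78, -1.01, 0.49 and -0.12, with the array 2 value from 1 spot. CCT3 was at 2.12, -0.43, 0.24 and -0.43, and its value on array 1 came from 2 spots at 1.94 and 2.30. CCT7 was at -0.03, -1.65, 0.14 and -0.11. The low value of CCT7 rested on 1 spot on array 2, and without that array its mean was near 0, at -0.0006, against -0.41 ± 0.35 (SE, n = 4) with it. Without array 1 the mean of CCT3 was -0.21, against 0.38 ± 0.48 with it. On array 2 the spots of CCT3 read 0.25 and -1.12, and without that pair its mean was 0.65 ± 0.53 on 3 arrays. CCT4 was at -0.37, 0.25, -0.17 and 0.49, low on arrays 1 and 3, while CCT8 was at -0.07, -0.50, 0.13 and -0.27, low on arrays 2 and 4. The means of CCT2, CCT5 and CCT6 were 0.09 ± 0.16, 0.11 ± 0.18 and -0.04 ± 0.17. Limma adjusted p values over the 8 genes ran from 0.76 to 0.98.

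HSF1 (YGL073W), the transcription factor of the heat shock response, was at 0.54, -0.71, 0.16 and -0.43 on arrays 1 to 4, above 0 on arrays 1 and 3 and below 0 on the others. Its mean was -0.11 ± 0.25 (SE, n = 4, limma adjusted p = 0.91).

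Values that differed between the 2 channel orientations, with the same or opposite sign, were common among the chaperone genes and among all genes. In 24 of 38 members, or 63.2%, the values of arrays 1 and 3 did not overlap those of arrays 2 and 4, against 57.7% of all genes with 4 values. Arrays 1 and 3 were the higher ones in 15 members (39.5%, against 28.2% of all genes) and the lower ones in 9 (23.7%, against 29.5%). The largest differences, arrays 1 and 3 minus arrays 2 and 4, were 2.70 ± 0.64 for SSA3, 1.61 ± 0.71 for CCT3, -1.50 ± 0.26 for HSP78, 1.44 ± 0.20 for SSE2, 1.20 ± 0.39 for TCP1, -1.11 ± 0.25 for HSP10 and 1.04 ± 0.20 for CDC37 (SE, limma). Those of SSA3, CCT3 and HSP78 include spot pairs more than 1 log2 unit apart, and without such pairs these genes lacked values on all 4 arrays. SSA3 on array 1 and HSP78 and TCP1 on array 2 rested on 1 spot. None of the members passed when this difference was tested, with limma adjusted p from 0.24 to 0.97, and 0% of all genes did. At an unadjusted p under 0.05 stood 8 members of 38, or 21.1%, against 17.6% of all genes. The difference was close to 0 for SSA1, at -0.02 ± 0.20, ZUO1, at 0.04 ± 0.21, and HSP82, at 0.04 ± 0.21.

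**Figure D3:**
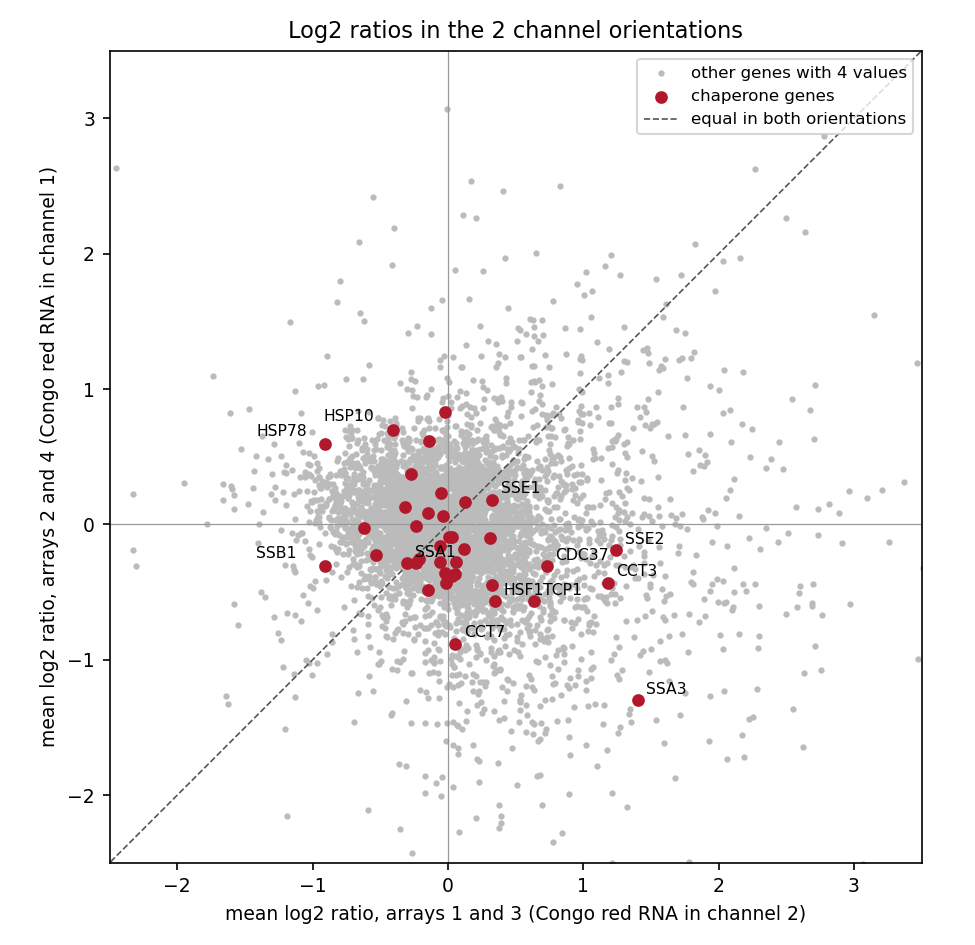
Mean log2 ratio on arrays 1 and 3, with Congo red RNA in channel 2 (horizontal axis), against the mean on arrays 2 and 4, with Congo red RNA in channel 1 (vertical axis), for the chaperone genes (red) and the other genes with 4 values (grey, those beyond the axes not drawn). SSE2, CDC37, CCT3 and SSA3 lie far below the dashed line of equal values and HSP78 and HSP10 above it, while SSA1 lies on it. The points of CCT3, SSA3 and HSP78 include spot pairs more than 1 log2 unit apart.

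Several chaperones are encoded by paralogs of which one is more stress-inducible or more abundant, and 6 such pairs were compared by the difference of their log2 ratios on each array. HSP82 minus HSC82 was -0.44, -0.15, -0.09 and -0.23, below 0 on all arrays, with a mean of -0.23 ± 0.15 (SD, n = 4, two-sided exact sign-flip permutation p = 0.125, the smallest that 4 arrays allow, and 0.75 adjusted over 6 pairs). With arrays centred in runs of 400 spot numbers this difference was -0.06. SSE2 minus SSE1 was 0.86 and 0.98 on arrays 1 and 3 and -0.39 and -0.36 on arrays 2 and 4, so its mean of 0.27 ± 0.75 (SD) joins opposite signs. SSA4 minus SSA3, the pair of inducible Hsp70 genes, ran from -2.35 on array 1 to 1.18 on array 2. Both extremes rest on uncertain SSA3 values, from 1 spot on array 1 and from spots at 1.06 and -4.74 on array 2. SSB1 minus SSB2 averaged -0.44 ± 0.59, SSA1 minus SSA2 -0.07 ± 0.44 and CPR6 minus CPR7 -0.13 ± 0.33 (SD, n = 4 each). Without spot pairs more than 1 log2 unit apart, SSB1 minus SSB2 was -0.18 and SSA4 minus SSA3 was -0.89. No pair passed in the exact permutation test, and with 4 arrays none could have.

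**Figure D4:**
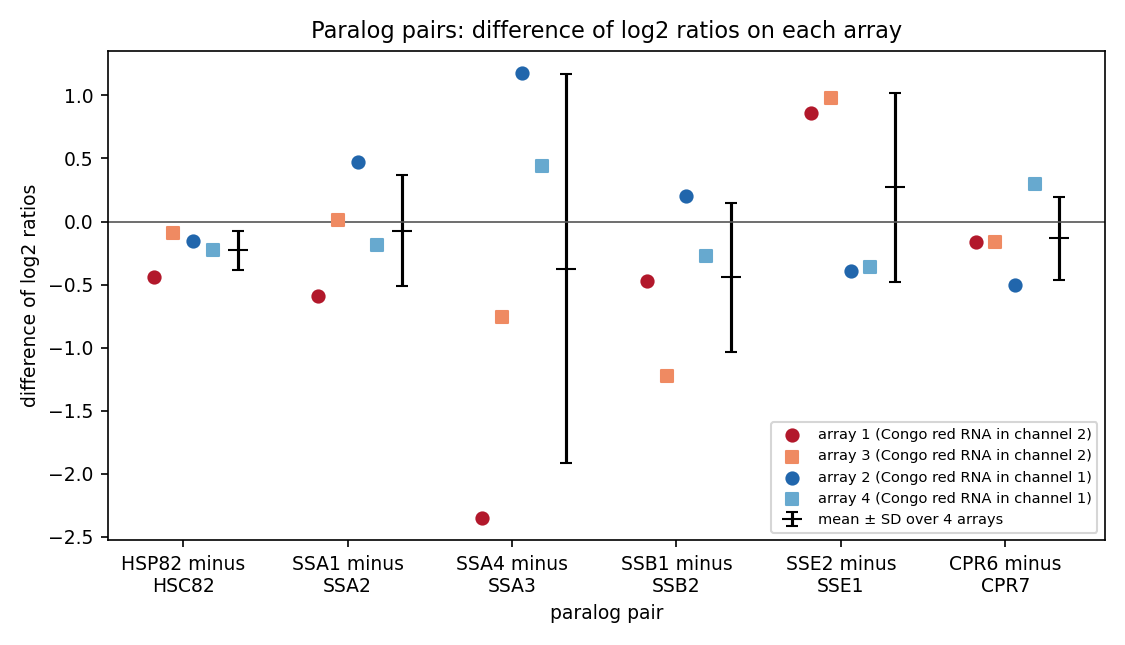
Difference of log2 ratios between the paralogs of each of 6 chaperone pairs on each array (points), with the mean ± SD over 4 arrays (black). HSP82 minus HSC82 lies below 0 on all 4 arrays, between -0.44 and -0.09, and SSE2 minus SSE1 is above 0 on arrays 1 and 3 and below 0 on arrays 2 and 4.

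The duplicate spots show how close the 2 spots of a gene were within an array. They share the same RNA and hybridization, so they do not show how well the arrays repeated each other. Over 146 gene and array combinations with both spots, the chaperone genes had a median gap of 0.09 log2 units between their spots, against 0.17 for all genes printed as 2 spots. Gaps over 1 occurred in 6 of these combinations, or 4.11%, against 10.4% of the combinations of all genes printed as 2 spots. They were SSA3, MDJ1 and CCT3 on array 2, HSP78 on arrays 1 and 4, and SSB1 on array 3. Another 6 combinations rested on 1 spot, 5 of them on array 2 (HSP104, HSP78, AHA1, TCP1 and CCT7) and 1 on array 1 (SSA3). The median SD over the 4 arrays was 0.34 for the members and 0.42 for all genes tested.

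**Figure D5:**
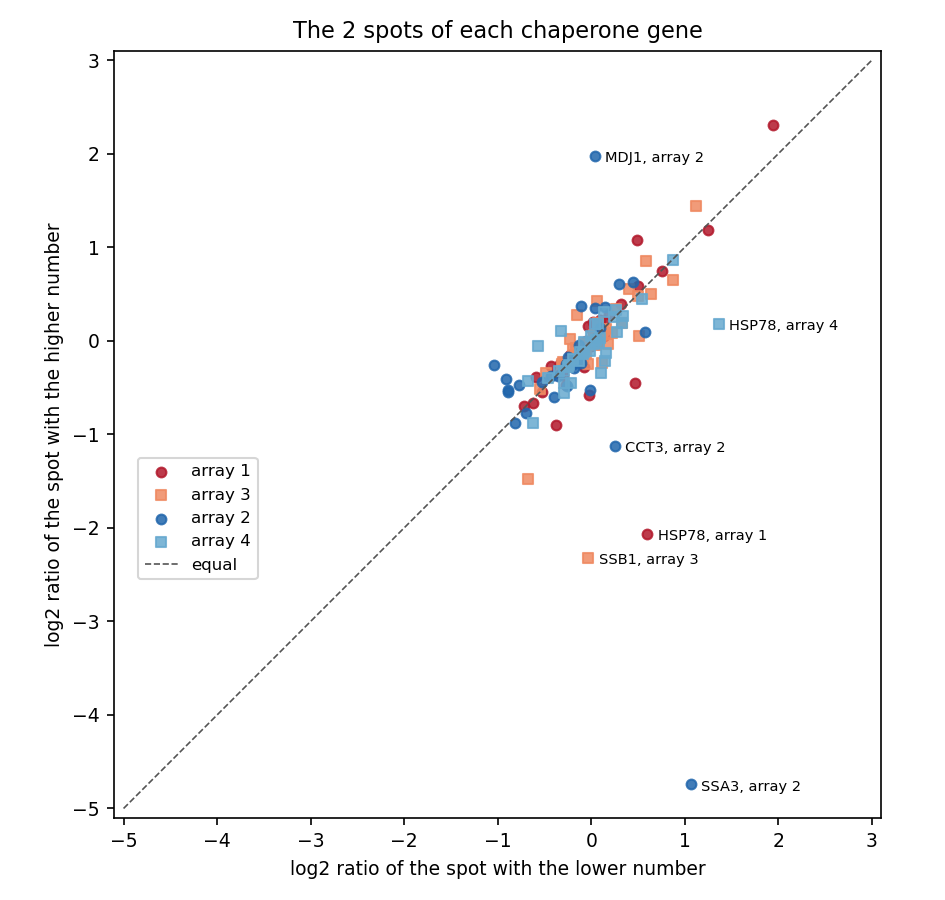
Log2 ratio of the spot with the lower number (horizontal axis) against that of the spot with the higher number (vertical axis) for each chaperone gene on each array, in log2 units with the array median at 0. Most points lie close to the dashed line of equal values, and the 6 combinations with a gap over 1 are named.

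Other chaperone genes were read from a further list, and none of the 44 tested passed the limma threshold. Their median was -0.04, with 17 means above 0 and 27 below, and 3 had an unadjusted p under 0.05, where the share of all genes was 7.74%. HSP26 (YBR072W), a small heat shock protein that holds unfolded proteins, was at -1.19, -0.55, -0.88 and -0.61, below 0 on each array, with a mean of -0.81 ± 0.17 (SE, n = 4, limma adjusted p = 0.36). DJP1, a J protein of peroxisome import, was at 0.27, 0.57, 0.73 and 0.57, above 0 on each array, with a mean of 0.53 ± 0.15 (limma adjusted p = 0.55). HSP31, a stress chaperone with glyoxalase activity, was at 0.14, 0.66, 0.33 and 0.84, also above 0 on each (limma adjusted p = 0.63). KAR2, the Hsp70 of the endoplasmic reticulum, was at 0.17, 1.13, -0.11 and 0.59. PAM18, the J protein of the mitochondrial import motor, had a mean of -0.31 ± 0.16, and PLP2, which assists the CCT ring, had -0.22 ± 0.13.

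By group, the 5 small heat shock and aggregate sorting genes had a median of -0.01 and the 5 further Hsp90 cochaperones -0.10. The 11 further J proteins and exchange factors had a median of -0.01, and the 7 tested prefoldin and phosducin-like genes 0.02. The 3 genes of the nascent chain complex, which shields new chains at the ribosome exit, had a median of -0.29 with array medians of -0.90, 0.35, -0.72 and -0.39. The 8 further mitochondrial genes had a median of -0.11, and the 5 genes of the Hsp70 system in the endoplasmic reticulum 0.10.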

How the data were processed

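Values were log2 ratios per spot, as deposited; that unit was read from the values, which are signed and not centred on 0. The labels give the channel of each RNA but no dye, scanner setting, background correction or normalization, and the ratio direction is not given in the sources used here. Blank cells made up 1.67% to 9.30% of the 12800 spots of an array. The median of every array was set to 0 and a gene's spots were averaged, with symbols from the platform's annotation, and for all 38 members the RefSeq table of assembly R64 gave the same symbol. For genes valued on 3 or 4 arrays, limma 3.58.1 was run in R 4.3.3 (lmFit and eBayes, mean log2 ratio against 0, two-sided, Benjamini-Hochberg over all genes). The channel term was fitted on genes with 4 values. Paralog pairs were compared by exact sign-flip permutation in scipy 1.17.1. Fits were tested on simulated data. Values printed with SE carry limma's moderated standard error.

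The members and lists were chosen with earlier results of these data known. All 38 members are named, and of the other chaperone genes the 3 with the smallest unadjusted p in each direction. 1 gene of that list is not reported here. Promoter motifs, which had been planned, were not examined, and no sequences or coordinates were used. The alternatives tried were leaving arrays uncentred, giving them an equal median absolute deviation, quantile normalization, other minimum numbers of arrays, leaving out discordant spot pairs or values at the upper limit, a channel term, robust eBayes, turning the sign of arrays 2 and 4, and leaving out each array. Centring within runs of 400 spot numbers was added after the data were seen.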

Additional observations from a re-analysis of the deposited data

Results flagged for a closer look

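Among 60 sets of 4 array values examined, 5 had 1 array standing far from the other 3, by a gap above Dixon's critical value for 4 samples, and chance flags about 1 in 20 sets. AHA1 was at 1.69 on array 2, from 1 spot, and at 0.01, -0.06 and -0.03 on arrays 1, 3 and 4. On each of arrays 1, 3 and 4 the value averaged spots on opposite sides of 0, such as 0.47 and -0.45 on array 1. CCT7 was at -1.65 on array 2, also from 1 spot, and between -0.11 and 0.14 on the others. MGE1 was at -0.62 on array 2, from spots at -0.77 and -0.47, and between 0.05 and 0.06 on the others. Its array 3 value averaged spots at -0.16 and 0.28. CNS1 was at -0.56 on array 4, from spots at -0.68 and -0.43, and between 0.09 and 0.19 on the others. The median of the Hsp90 genes HSP82 and HSC82 was -0.29 on array 2, against -0.11 to -0.08 on arrays 1, 3 and 4, a difference of small size.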

How the results depend on the processing

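No chaperone gene passed the limma threshold under any alternative run, with smallest limma adjusted p values among members from 0.29 with the channel term to 1.00 without centring. Of the 5 genes that passed over the whole array, 0 passed with arrays scaled to a common spread, quantile normalization, the channel term, centring in runs of 400 spot numbers, the sign of arrays 2 and 4 turned, or any 1 array left out; 11 genes passed without discordant spot pairs. The members' median was -0.14 to -0.02 with 1 array left out, and 0.0552 with the sign of arrays 2 and 4 turned, where 23 of 38 member means changed sign. Without that turn all 7 marker genes with a test lay above 0 on every array. The turn puts these markers below 0 on arrays 2 and 4. As the markers were listed with earlier results of these data known, their signs are not independent support for either direction. Signs changed for 4 members without centring, 2 with scaling, 1 with quantile normalization and 5 with centring in runs. HSP82 minus HSC82 was -0.0374 with the sign turned and -0.0594 with centring in runs. The channel difference passed in 56 genes without centring. The causes were not tested. HSP78 had values on too few arrays without discordant spot pairs. Each ratio already pairs Congo red and untreated RNA of a divided culture, so the test against 0 is a paired one and no further replicate block was fitted.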
